A study of Mus musculus with 40 samples.

Results

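The arrays described here are those of the high-fat diet (HFC) without Kal-1, a plant formulation that other mice of the series received with the same diet, and the question was how the subcutaneous cells differed between the first days on the diet and the later weeks. The labels' diet and time point set the members: an HFC array was early at 1, 6, 10 and 14 Day and Week0, and late at Week3, Week6, Week9, Week12, Week15 and Week18. This gave 11 of the 40 arrays, 5 early and 6 late, while 38 arrays had a group in all. RNA of stromal vascular cells (SVCs), the cells left when adipocytes are removed from fat tissue, was measured from subcutaneous fat of C57BL/6J mice on Agilent arrays with 1 colour. Weaned mice of 3 to 4 weeks were placed in diet groups of 30 animals, and 5 animals per group were taken every 3 weeks over 18 weeks. The HFC group received 60% of its calories from fat, with more sucrose, and the low-fat control group (LFC) received 10%. The labels do not say from which day the weeks count, and the paper, which analysed liver arrays of the same experiment, counts them from day 14. In days on the diet by that count, the Week0 array lies at 14, as the 14 Day array does. The late arrays lie at 35, 56, 77, 98, 119 and 140. The series text names 3 biological replicates, but the labels give 1 array per diet and time point, and whether an array held RNA of 1 animal or of several was not given in the sources used here. The spread within the early or the late group therefore mixes time, animal and array, and the mice also grew older along the same axis, so that age and time on the diet cannot be told apart within HFC.

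Subcutaneous fat holds adipocytes that store lipid, and between them a stroma of fibroblasts and preadipocytes, blood vessels, macrophages and lymphocytes. On a high-fat diet the depot expands, macrophages are known to gather around dying adipocytes and to take up their lipid, and the stroma is known to be remodelled. Young mice also carry thermogenic adipocytes in this depot, which burn fat through uncoupling protein 1, and many growth genes of fetal and juvenile tissue are turned down as the animal matures.

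The series title speaks of infiltrating macrophages, so the marker genes were examined first. Of 15 macrophage identity genes, 14 were well above background on all 11 HFC arrays, and Adgre1, which encodes a surface antigen widely used to mark macrophages, was well above background on each of them. Markers of other cells were present too. All 14 adipocyte markers, all 14 preadipocyte and fibroblast markers and all 12 endothelial markers were well above background on all 11 arrays, and 10 of the adipocyte markers were saturated on at least 1 of them. The arrays are therefore called SVC arrays here and not macrophage arrays. In bulk RNA, fewer cells of a type and less RNA per cell cannot be told apart. Levels below are log2 intensities relative to the 75th percentile of the same array, so that 0 is that percentile itself, and differences are late mean minus early mean on that log2 scale.

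The arrays themselves differed along the time axis. On the early arrays, in order of time, 82.7%, 73.9%, 74.5%, 82.4% and 74.8% of the probes were well above background, and the share ran from 60.5% to 72.7% with a median of 70.5% on the late arrays. Every early array thus detected more probes than every late array. The 75th percentile ran from 161 to 1296 intensity units on the early arrays and from 282 to 1623 on the late arrays, and these ranges overlapped. After the shift, a saturated value therefore has a different level on each array, lowest at Week9, where the percentile was 1623. The 4 early arrays of days 1 to 14 were scanned after every late array, and Week0 was scanned among the late arrays. The 11 HFC arrays were scanned on 11 different days and lay on different slides. Scan time and the contrast of days 1 to 14 with the weeks therefore cannot be told apart, and only Week0 crosses that line.

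**Figure D1:**
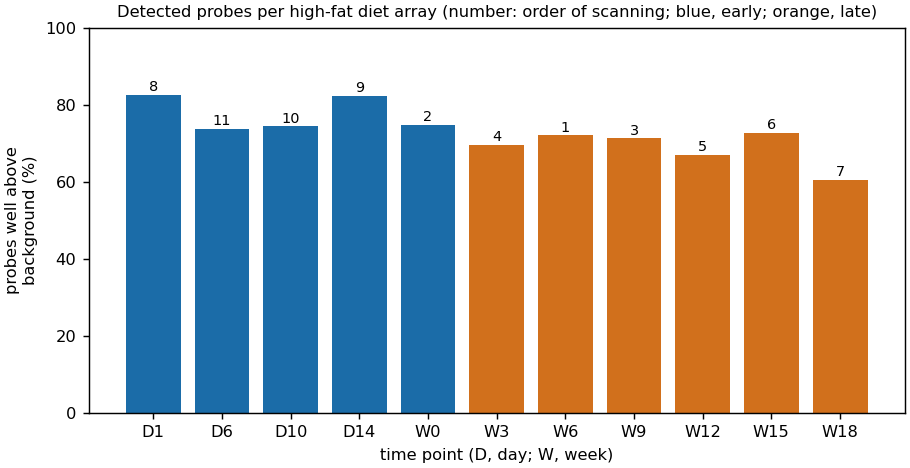
The bars give the percent of probes well above background on each of the 11 HFC arrays, early in blue and late in orange, and the number above a bar is the place of the array in the scan order. The 5 early bars lie between 73.9% and 82.7%, all above the late bars at 60.5% to 72.7%, and the 4 arrays of days 1 to 14 were scanned last.

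The arrays of 1 Day and 6 Day stood apart. Their median rank correlation with the other HFC arrays, across 31993 probes, was 0.852 and 0.837, while it was 0.915 to 0.952 for the other 9 arrays. The pair of arrays from the same time, 14 Day and Week0, had a rank correlation of 0.933 and differed by a median of 0.63 in absolute value, and 34.1% of the probes differed at least 2-fold between them. The late mean and the early mean differed by a median of 0.46 in absolute value, with 23.8% of the probes at 2-fold or more. Values without 1 Day and 6 Day, or without Week9, are given below for many lists and genes whose difference shrank there.

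With all 11 arrays, 0 of 32491 probes (0%) passed an adjusted p of 0.05 by limma, and the smallest adjusted p, 0.159, belonged to H19. At an unadjusted p under 0.05, limma had 4561 probes, of which 499 were higher on the late arrays (1.54%) and 4062 were lower (12.5%). The methods' t-test had 3869 probes unadjusted and 0 after Benjamini-Hochberg adjustment. The early and late values did not overlap for 43 probes that were higher on the late arrays (0.132%) and for 333 that were lower (1.02%). The median difference over all probes tested was −0.26, and 67.4% of them had a negative difference. The list medians and counts below stand beside these values and the 1.54% and 12.5% above. That median depends on the scaling, at −0.02 after quantile normalization and 0.28 after the normexp background correction. The split of the probes at an unadjusted p moved with it, from 10.9% higher in the first setting to 40.0% higher after quantile normalization and 55.7% higher with normexp.

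The calls turned on the Week0 array. Without it, 1281 of 34587 probes passed an adjusted p of 0.05, of which 26 were higher on the late arrays (0.0752%) and 1255 were lower (3.63%). These calls depended on the late arrays as well. Without Week0 and Week3, 3 probes passed. Without Week0 and Week9, a setting chosen after seeing the data, limma gave 0 calls with 8829 probes at an unadjusted p, and the smallest adjusted p was 0.0582. Of the 26 higher probes, 21 were well above background on all 11 HFC arrays. Of the 1255 lower probes, only 65 (5.18%) were, their median level was −6.42, and the median such probe was well above background on 0 late arrays. The level at Week0 lay within the range of the late arrays for 729 of the 1255, below all of them for 371 and above all of them for 155. Most of the lower calls are therefore probes near background that were brighter on the 4 arrays scanned last, and the scan time, the time on the diet and the share of probes detected cannot be told apart for them. The genes named below as passing without Week0 did not pass with all arrays, nor without Week0 and Week9, and of them only H19 passed without Week0 and Week3. Week0 was also taken alone as the early group, a setting chosen after seeing the data. It has 1 early array, so only the direction and size of its differences are given. Without 1 Day and 6 Day, also chosen after seeing the data, limma gave 0 calls among 30639 probes, with 258 higher and 1876 lower at an unadjusted p and a median of −0.12.

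H19 was the gene nearest the threshold. It encodes a long noncoding RNA made from the maternal chromosome next to Igf2, abundant in fetal tissue and turned down after birth. H19 read 1.40, 1.05, −0.08 and 2.10 at days 1, 6, 10 and 14, −1.33 at Week0, and from −4.72 to −3.20 with a median of −3.94 on the late arrays. Each early array was above each late array, Week0 was the lowest of the early arrays, and no array of days 1 to 14 came near the late ones. The difference was −4.57 ± 0.58 (SE, 5 early and 6 late arrays), a 23.7-fold lower level on the late arrays, with an adjusted p of 0.159 by limma. H19 passed the test without Week0, at −5.06 with an adjusted p of 0.0178, it also passed without Week0 and Week3, and it was the 1 probe that passed when only probes well above background on all arrays were tested, with an adjusted p of 0.0470. It was well above background on all 11 arrays. Without the arrays of 1 Day and 6 Day the difference was −4.17, and it was −2.61 with Week0 alone as the early group and −2.42 with normexp. The probe is shown because the size of this result rests on it.
H19: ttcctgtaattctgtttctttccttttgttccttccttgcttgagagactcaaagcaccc

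H19 belongs to a list of imprinted and growth genes of the depot. Of 15 genes tested on this list, H19 among them, 14 were lower on the late arrays, 5 of them at an unadjusted p, and 0 were higher at an unadjusted p. The median difference was −0.85 beside −0.26 for all probes, and it was −0.61 with normexp, −0.77 after quantile normalization, −0.88 without 1 Day and 6 Day and −0.67 with Week0 alone. The list's mean level was 0.07 to 0.70 on the early arrays and −1.05 to 0.19 on the late arrays, where Week9 was the only late array that reached into the early range. Dlk1, an inhibitor of adipocyte formation made by preadipocytes, read −0.84, −1.86, −1.39, −1.05 and −1.56 on the early arrays in order of time and −3.59 to −1.47 with a median of −2.65 on the late arrays. Its difference was −1.32 ± 0.37, or −0.52 with normexp, and Week12 was the only late array within the early range. Peg3, a zinc finger protein made from the paternal chromosome, differed by −1.59 ± 0.60, or −0.61 with normexp. It differed by −2.11 without Week9, which at −0.28 matched the highest early array. Cdkn1c, an inhibitor of the cell cycle, differed by −1.23 ± 0.47, and Grb10, an adaptor that dampens insulin signalling, by −0.85 ± 0.32, with −1.16 and −0.21 for its 2 other probes. Their early and late ranges overlapped. Igf2, the growth factor gene next to H19, read 1.75 to 3.00 on the early arrays and −0.28 to 3.09 on the late arrays, a difference of −0.71 ± 0.50 with an adjusted p of 0.530, or −0.32 without Week9. The ranges of Igf2 overlapped widely.

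Among the genes with groups apart were 2 of immunoglobulins, Igh and Jchain. A probe for Igh, the immunoglobulin heavy chain locus, read −1.70 and −0.46 at days 1 and 6, 3.00 and 2.42 at days 10 and 14, 3.37 at Week0, and from 5.09 to 6.30 with a median of 5.61 on the late arrays. Early and late values did not overlap, and within the early group the arrays of 1 Day and 6 Day were far below the others. The difference was 4.31 ± 0.84 (adjusted p 0.247), a 19.8-fold higher level, and 3 of the late values were saturated, so that the true level there may be higher. It was 2.71 without 1 Day and 6 Day and 2.27 with Week0 alone, and it passed without Week0 at 4.82 with an adjusted p of 0.0419. A second Igh probe differed by 4.81. The probes are shown because the locus holds several constant regions and each probe reads only its own stretch. Their values are therefore not the level of the locus as a whole, and the 2 probes may read the same constant region.
Igh, first probe: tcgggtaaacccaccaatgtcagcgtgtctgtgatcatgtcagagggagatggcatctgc
Igh, second probe: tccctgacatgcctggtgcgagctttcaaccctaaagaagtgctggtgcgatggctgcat

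Jchain, which links immunoglobulin units into the polymers that plasma cells secrete, read −3.93, −0.97, −0.04 and 1.82 at days 1, 6, 10 and 14, 0.85 at Week0, and from 1.89 to 5.19 with a median of 4.23 on the late arrays. The groups did not overlap, though 14 Day lay just under the lowest late array, Week12. The difference was 4.22 ± 0.95, or 2.89 without 1 Day and 6 Day and 2.91 with Week0 alone, and it passed without Week0 at 4.54 with an adjusted p of 0.0430. The second Jchain probe differed by 4.17. Igkv3-12, a variable segment of the kappa light chain chosen after its values were seen, differed by 2.62 ± 0.70 and passed without Week0 with an adjusted p of 0.0464. Ighm, the mu heavy chain of the B cell list, differed by 2.62 ± 0.75 with overlapping ranges. For Igh and Jchain the 1 Day value was the lowest of the 11 arrays.

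The B cell list as a whole followed another order of arrays. Of 10 genes tested, 1 was higher at an unadjusted p and 0 were lower. The median difference was 0.73, or 1.54 without Week9 and 1.16 without Week0. The mean level of the list was −4.59, −3.42, −4.07 and −0.15 at days 1, 6, 10 and 14, −1.55 at Week0, and from −5.48 to 0.92 with a median of −2.20 on the late arrays. Week3, Week15, Week18, 14 Day and Week0 were high and Week9 was the lowest of all, so high and low arrays were found in both groups. Cd79b, the signalling chain of the B cell receptor, read −2.55 to 3.42 on the early arrays and −1.77 to 4.92 on the late arrays, with a difference of 1.51 ± 1.35 that was 0.21 without 1 Day and 6 Day and −0.67 with Week0 alone. The T cell list had a median difference of 1.56 and 0 of 11 genes at an unadjusted p in either direction. Its mean level was above 0 at 14 Day, Week3, Week15 and Week18, and it was lowest at 1 Day and Week9, at −4.30 and −3.39. Cd3d, a chain of the T cell receptor complex, differed by 2.12 ± 1.29, or 0.27 without 1 Day and 6 Day. In the lymph node stroma list, 1 of 8 genes was higher and 1 was lower at an unadjusted p, with a median of 1.45. This list was at 2.11 at 14 Day, 0.51 at Week0, 2.42 at Week3, 1.86 at Week15 and 1.29 at Week18, and below 0 on the other 6 HFC arrays. Cxcl13, the chemokine that draws B cells into follicles, differed by 2.43 ± 0.97, or 1.31 without 1 Day and 6 Day, and Madcam1, an adhesion molecule of lymph node vessels, by −1.99 ± 0.55, or 0.24 with normexp. The subcutaneous depot holds lymph nodes, and the part of lymph node tissue in the levels of the immunoglobulin genes was not tested. Igh was also high at Week6, Week9 and Week12, at 6.30, 5.33 and 5.09, where the B cell list read −3.50, −5.48 and −3.56. Without 1 Day and 6 Day, the medians of the B cell, T cell and lymph node lists were −0.38, 0.03 and −0.45.

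Cytotoxic and granulocyte lists were examined next. Of 10 natural killer and cytotoxic genes, 0 were at an unadjusted p in either direction. The median of 0.98 became −0.01 without 1 Day and 6 Day and 1.59 without Week9. Klrd1, the CD94 receptor of natural killer cells, differed by 1.96 ± 0.96, or 0.40 without 1 Day and 6 Day, with the lowest values at 1 Day and 6 Day. Of 12 neutrophil genes, 1 was higher and 0 were lower, with a median of 0.25 that was −0.50 without these arrays and 0.75 without Week9. That gene was Ly6g, the neutrophil surface antigen, at 1.33 ± 0.54, or 0.51 without 1 Day and 6 Day. The mast cell list had 0 of 8 genes at an unadjusted p and a median of 0.09, or −0.45 without 1 Day and 6 Day.

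The macrophage identity list had a positive median difference that depended on the arrays of the first days. All 15 macrophage identity genes tested had a positive difference, 2 of them at an unadjusted p, and the median was 0.63. The mean level of the list was −1.19, 0.27, 0.95, 0.52 and 1.30 on the early arrays in order of time, and from 0.80 to 2.15 with a median of 0.87 on the late arrays. 1 Day was the lowest and Week6 the highest array, while 10 Day and Week0 lay within the late range. The median of the list was 0.09 without 1 Day and 6 Day and −0.17 with Week0 alone. Lyz2, the lysozyme of macrophages, differed by 1.04 ± 0.44, with 1 early and 4 late values saturated and no usable value at 10 Day. Lyz2 differed by 0.44 with Week0 alone, and leaving out each array in turn gave 0.61 to 1.27. Cd68, a lysosomal protein of phagocytes, differed by 1.28 ± 0.67, by 0.41 without 1 Day and 6 Day, and by −0.05 with Week0 alone. Adgre1 differed by 0.09 ± 0.55, with −0.01 at 1 Day and 3.25 at 10 Day, and the difference was −0.59 without 1 Day and 6 Day.

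Macrophages that take up lipid from dying adipocytes carry their own set of genes. Of 14 lipid-associated macrophage genes tested, 3 were higher and 0 were lower at an unadjusted p, 10 had a positive difference, and the median was 0.42, or 0.34 without 1 Day and 6 Day and 0.18 with Week0 alone. Gpnmb, a glycoprotein of lipid-laden macrophages, read −4.17, −2.99, −0.57, −2.13 and −1.25 on the early arrays in order of time and from −0.54 to 0.74 with a median of −0.42 on the late arrays. The groups did not overlap, but 10 Day at −0.57 was next to Week3 at −0.54. The difference was 2.10 ± 0.58 (adjusted p 0.266), it was 1.19 without 1 Day and 6 Day, and it did not pass without Week0 (adjusted p 0.0579). Trem2, the lipid receptor of these cells, read −2.71, 0.44, 1.17, −1.43 and 0.80 on the early arrays and 0.04 to 2.60 with a median of 1.37 on the late arrays. Its difference was 1.63 ± 0.72 and the ranges overlapped. Itgax, which encodes CD11c, differed by 1.99 ± 0.79 but by 0.61 without 1 Day and 6 Day, and Lgals3, which encodes galectin 3, by 1.47 ± 0.68 and 0.65.

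Signals and receptors of macrophage activation were read from 2 lists. The alternative activation list had 5 of 12 genes higher and 0 lower at an unadjusted p and a median of 1.25, which was 0.47 without 1 Day and 6 Day and −0.02 with Week0 alone. Pf4, a platelet chemokine that tissue macrophages also make, read 1.85, 2.49, 2.85, 3.02 and 3.82 on the early arrays and 3.01 to 4.81 with a median of 4.10 on the late arrays. Week0 was the highest early array, above 14 Day of the same time, and only Week3 and Week18 among the late arrays lay within the early range. The difference was 1.24 ± 0.41, or 0.82 without 1 Day and 6 Day and 0.23 with Week0 alone. Mgl2, a lectin of alternatively activated macrophages, differed by 1.35 ± 0.45, the eosinophil attractant Ccl24 by 1.69 ± 0.66 and the secreted protein Retnla by 1.91 ± 0.81. Mgl2 differed by 0.81 and Ccl24 by 1.03 without 1 Day and 6 Day. Retnla had 3 saturated late values and differed by 0.49 without 1 Day and 6 Day. Of the 14 inflammatory cytokine and enzyme genes, 0 were at an unadjusted p in either direction, although the median was 1.37, the mean level of the list was −4.46 at 1 Day and −3.24 at Week9, and it was −0.20 to 2.16 on the other 9 arrays. The median was 2.22 without Week9 and −0.05 without 1 Day and 6 Day. Ccl2, the monocyte attractant, differed by 1.84 ± 1.06, and Ccl5, a T cell attractant, by 2.21 ± 1.19. Without 1 Day and 6 Day, Ccl2 differed by 0.71 and Ccl5 by 0.45.

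The medians of the antigen presentation and complement lists also shrank without 1 Day and 6 Day. MHC class II genes had a median difference of 1.79, with 2 of 9 higher and 0 lower at an unadjusted p, and 0.29 without 1 Day and 6 Day. H2-Ab1, a chain of the presenting molecule, read 0.27, 3.06, 5.00, 5.23 and 5.66 on the early arrays and 4.80 to 6.75 with a median of 5.95 on the late arrays, with a difference of 2.09 ± 0.86 that was 0.64 without 1 Day and 6 Day, and 2 late values saturated. Its levels at 10 Day, 14 Day and Week0 lay within the late range. H2-DMb1, which helps to load peptides, differed by 2.25 ± 0.84, or 1.01 without 1 Day and 6 Day. Of 14 complement genes, 2 were higher and 0 lower at an unadjusted p, with a median of 0.95 that was 0.21 without 1 Day and 6 Day. C1ra, a protease of the first complement component, read −0.11, 1.04, 2.20 and 2.55 at 1 Day, 6 Day, 14 Day and Week0, with no usable value at 10 Day, and 2.65 to 3.93 with a median of 3.19 on the late arrays. Its difference was 1.78 ± 0.50, the groups did not overlap, and it passed without Week0 with an adjusted p of 0.0482. A second C1ra probe differed by 0.86. C4b differed by 1.83 ± 0.61, or 1.14 without 1 Day and 6 Day, with 1 late value saturated. Of 19 lysosome genes, 2 were higher and 0 lower, with a median of 0.24. Npc2, which carries cholesterol out of the lysosome, read 2.30 to 3.29 on the early arrays and 3.36 to 4.39 on the late arrays without overlap, a difference of 0.70 ± 0.30, and the protease gene Ctsk differed by 1.42 ± 0.62, or 0.42 without 1 Day and 6 Day.

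Several other genes were higher on every late array than on any early array. Inmt, a methyltransferase of small amines, read −0.40, 0.34, 1.66, 0.50 and 1.94 on the early arrays in order of time and from 2.97 to 5.03 with a median of 3.75 on the late arrays. The lowest late array, Week9, was above the highest early array, Week0. The difference was 2.94 ± 0.49 (adjusted p 0.247), a 7.69-fold higher level. It was 2.38 without 1 Day and 6 Day, 1.81 with Week0 alone and 2.69 with normexp, and it passed without Week0 at 3.23 with an adjusted p of 0.0419.

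Pla1a, a phospholipase that acts on phosphatidylserine, read 0.83, −0.06, 1.42, −0.71 and 1.87 on the early arrays and 2.25 to 4.37 with a median of 3.17 on the late arrays. Its difference was 2.56 ± 0.53, and it was 2.37 without 1 Day and 6 Day and 1.36 with Week0 alone. Clec3b, the plasminogen-binding protein tetranectin, read −0.53, 0.96, 1.89, 0.42 and 2.09 on the early arrays and 2.30 to 3.38 with a median of 2.97 on the late arrays. Its difference was 1.94 ± 0.46, or 1.44 without 1 Day and 6 Day and 0.82 with Week0 alone. Pcolce2, which speeds the trimming of procollagen, read 0.56, −0.43, 2.04, 1.46 and 1.99 and then 2.29 to 3.32 with a median of 3.02. Its difference was 1.77 ± 0.46, or 1.07 without 1 Day and 6 Day and 0.91 with Week0 alone. For both, 10 Day and Week0 came near the lowest late arrays. The lowest arrays were 1 Day and 14 Day for Clec3b, and 6 Day and 1 Day for Pcolce2. Both genes passed without Week0, with adjusted p of 0.0420 and 0.0481, as did Pla1a with 0.0419. Nmb, which encodes the peptide neuromedin B, differed by 1.51 ± 0.39, and its highest early value, 0.87 at 1 Day, was just under its lowest late value of 0.90. Phf1, a chromatin protein that binds methylated histone, differed by 0.94 ± 0.25, and its 5 early values lay between −0.20 and 0.35. Ppl, the cytoskeletal linker periplakin, differed by 2.06 ± 0.59, or 1.16 without 1 Day and 6 Day, with 1 Day and 6 Day lowest. Nmb, Phf1 and Ppl did not pass without Week0. These genes and Gpnmb, Igh and Jchain are 10 of 21 named genes that were higher on the late arrays, had no overlap and were well above background on at least 50% of each group, and none passed with all arrays.

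Sult1e1, an estrogen sulfotransferase whose values were seen before it was chosen, separated Week0 from the rest of the early group. It read −2.74, −3.98, −3.94 and −4.75 at days 1, 6, 10 and 14, 0.58 at Week0, and 0.38 to 5.48 with a median of 2.34 on the late arrays. The arrays of 14 Day and Week0 are of the same time by the paper's count of weeks, yet Week0 was at the level of the low late arrays. The 14 Day array was the lowest of all, and the 2 arrays lie on opposite sides of the scan order. The difference was 5.38 ± 1.09, or 1.84 with Week0 alone, and Sult1e1 passed without Week0, with an adjusted p of 0.0419. Egfr, the epidermal growth factor receptor, also chosen after its values were seen, differed by 1.88 ± 0.51, or 1.17 without 1 Day and 6 Day, and passed without Week0 with an adjusted p of 0.0494.

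The preadipocyte and fibroblast list had 2 of 14 genes higher and 1 lower at an unadjusted p, with a median of 0.71 that was 0.07 without 1 Day and 6 Day. Pi16, a marker of fibroblast progenitors, read 0.15, 0.41, 1.03 and 2.97 at 1 Day, 6 Day, 14 Day and Week0 and 2.03 to 4.88 with a median of 3.28 on the late arrays, a difference of 2.26 ± 0.67 that passed without Week0 with an adjusted p of 0.0422. Pi16 had no usable value at 10 Day. Week0 lay within the late range, and 1 Day, 6 Day and 14 Day below it. Thy1, a surface protein of fibroblasts and T cells, differed by 1.52 ± 0.55, or 0.83 without 1 Day and 6 Day. The collagen and matrix list had 0 of 23 genes higher and 2 lower at an unadjusted p and a median of 0.29, which was −0.36 without 1 Day and 6 Day and −0.64 with Week0 alone. Both lower genes are matrix components: Col4a1, a collagen of basement membranes, read 3.88 to 4.73 on the early arrays and 2.14 to 4.02 with a median of 3.62 on the late arrays, a difference of −0.98 ± 0.36. Only Week12 reached the early range. Postn, which encodes periostin, differed by −1.06 ± 0.40. The list of matrix proteases and inhibitors had 2 of 17 higher and 0 lower, with a median of 0.81 that was 0.05 without 1 Day and 6 Day. Mmp2, a gelatinase, differed by 1.89 ± 0.70 and by −0.09 with Week0 alone, with no usable value at 10 Day, and Timp2, its inhibitor, by 1.43 ± 0.61, or 0.54 without 1 Day and 6 Day, with 2 early and 5 late values saturated.

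**Figure D2:**
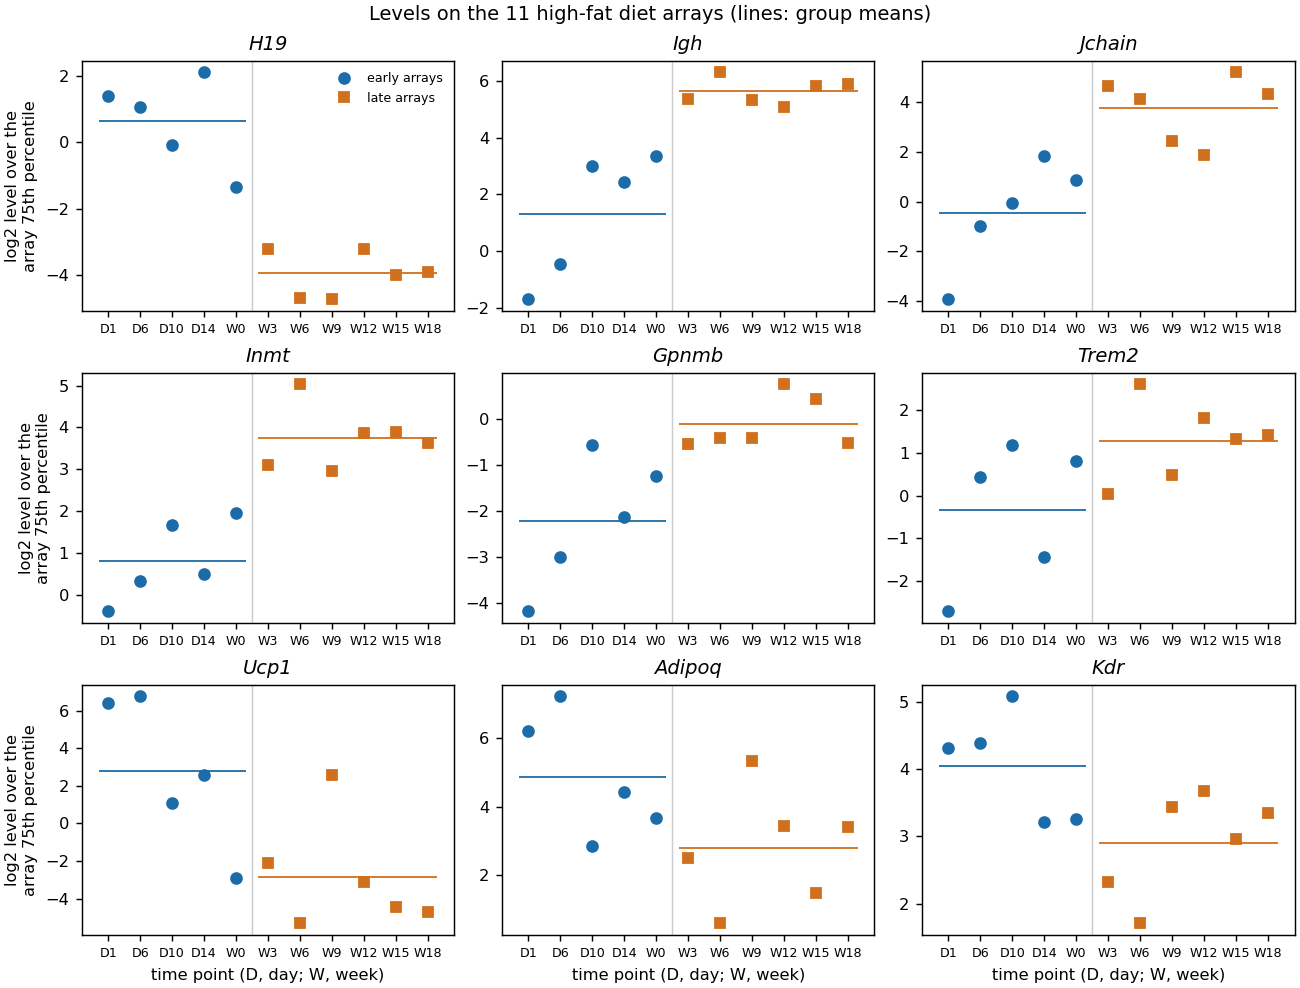
Each panel gives the log2 level of a gene, after the shift by that array's 75th percentile, on the 11 HFC arrays in order of time, with early arrays as blue circles, late arrays as orange squares and lines at the group means. H19 lies at −1.33 to 2.10 on the early and −4.72 to −3.20 on the late arrays, Inmt, Igh, Jchain and Gpnmb are higher late without overlap, and Ucp1 is highest at 1 Day and 6 Day, with 14 Day and Week9 next at 2.60 and 2.59.

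Adipocyte genes showed the opposite picture. All 14 adipocyte genes were lower on the late arrays, 4 of them at an unadjusted p and 0 higher, with a median of −1.55. The mean level of the list was 4.97, 5.59, 2.33, 3.40 and 2.41 on the early arrays in order of time, and from 0.47 to 4.78 with a median of 2.03 on the late arrays. 1 Day, 6 Day and Week9 were the highest arrays and Week6 the lowest, and the rest lay between 1.00 and 3.40. The median was −0.72 without 1 Day and 6 Day, −2.23 without Week9 and −0.36 with Week0 alone. Adipoq, the hormone adiponectin of mature adipocytes, read 6.22, 7.22, 2.85, 4.43 and 3.66 on the early arrays and 0.60 to 5.34 with a median of 2.97 on the late arrays. Its difference was −2.07 ± 0.94, or −0.85 without 1 Day and 6 Day, with 1 early and 1 late value saturated. Plin1, the coat protein of lipid droplets, differed by −2.97 ± 1.25, Pck1, which makes glycerol for triglyceride, by −2.61 ± 1.04, and Pparg, the master regulator of adipocyte genes, by −1.96 ± 0.77. Without 1 Day and 6 Day, Plin1 differed by −1.47, Pck1 by −1.39 and Pparg by −0.92. Saturated values were 2 early and 1 late for Pck1, 1 late for Plin1 and 1 early for Pparg, so these differences are not exact. Since stromal vascular cells are prepared by removing adipocytes, the level of adipocyte RNA on each array is given beside the immune lists: the arrays with the highest adipocyte levels, 1 Day, 6 Day and Week9, had the lowest T cell and natural killer levels. The part of adipocyte RNA in the other differences was not tested.

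The thermogenic and respiratory lists were, like the adipocyte list, highest at 1 Day, 6 Day and Week9. Of 18 genes of fatty acid oxidation and thermogenesis, 17 were lower on the late arrays, 4 at an unadjusted p and 0 higher, with a median of −1.65. The mean level was 4.28, 4.02, 0.93, 1.36 and −0.03 on the early arrays and −0.48 to 2.16 with a median of −0.18 on the late arrays. Week0 was within the late range and Week9 above 10 Day and 14 Day. The median was −0.33 without 1 Day and 6 Day, −2.04 without Week9 and 0.07 with Week0 alone. Ucp1, which uncouples respiration to make heat, read 6.41, 6.77, 1.09 and 2.60 at days 1, 6, 10 and 14, −2.93 at Week0, and from −5.32 to 2.59 with a median of −3.79 on the late arrays. It was highest in the first 6 days, and Week9 was the only late array at the level of 14 Day. The difference was −5.64 ± 1.83 (adjusted p 0.277), and −3.11 without 1 Day and 6 Day, −6.73 without Week9 and 0.07 with Week0 alone. With 1 early value saturated, it is not exact. Ucp1 passed without Week0 at −7.07 with an adjusted p of 0.0431.

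Cidea, a lipid droplet protein of thermogenic fat, differed by −3.94 ± 1.62, Acaa2, the last enzyme of fatty acid oxidation, by −1.30 ± 0.50, and Hadha, a mitochondrial enzyme of long-chain oxidation, by −1.90 ± 0.79. Without 1 Day and 6 Day, Cidea differed by −1.80, Acaa2 by −0.57 and Hadha by −0.55. Of the Cidea values, 2 early and 1 late were saturated, and of the Acaa2 values, 1 early and 1 late. Cidea was higher by 0.23 with Week0 alone, and Hadha was at 4.18 and 2.37 at 1 Day and 6 Day and at −0.60 to 0.20 on the other early arrays. Of 23 genes of the respiratory chain and ATP synthase, 22 were lower on the late arrays, 2 at an unadjusted p and 0 higher, beside 12.5% of all probes lower at that threshold. The median was −0.92, and it was −0.07 without 1 Day and 6 Day and 0.17 with Week0 alone. For 18 of them at least 1 value was saturated. Cox5a differed by −1.10 ± 0.48 and Atp5a1 by −0.88 ± 0.37, or by −0.27 and −0.42 without 1 Day and 6 Day. The antioxidant list had 0 of 18 genes at an unadjusted p and a median of −0.34, or 0.028 without 1 Day and 6 Day.

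Lipid synthesis genes came next. Of 16 genes of fatty acid synthesis, 15 were lower on the late arrays, 3 at an unadjusted p and 0 higher, with a median of −1.32, or −1.92 without Week9, −0.38 without 1 Day and 6 Day and 0.12 with Week0 alone. Fasn, the fatty acid synthase, read 6.13, 8.06, 5.21, 6.87 and 4.59 on the early arrays and 3.75 to 5.34 with a median of 4.35 on the late arrays, a difference of −1.74 ± 0.56, or −1.12 without 1 Day and 6 Day, with 2 early and 1 late value saturated. The 4 arrays of days 1 to 14 were above every late array except Week9, which was above 10 Day, and Week0 lay within the late range. Since saturation caps the level differently on each array, the place of Week9 among them is not exact. Elovl6, which lengthens fatty acids, differed by −1.92 ± 0.70 and Thrsp, a lipogenic nuclear protein, by −2.41 ± 1.05, with 1 early Thrsp value saturated. Without 1 Day and 6 Day these were −0.94 and −0.98. Of 17 genes of cholesterol synthesis and uptake, 16 were lower, beside 67.4% of all probes, and 1 was lower at an unadjusted p, beside 12.5% of all probes, with a median of −0.53 that was −0.71 without 1 Day and 6 Day and −0.43 with Week0 alone. The mean level of the list was 0.01 to 0.57 on the early arrays and −0.76 to 0.20 on the late arrays. Fdft1, the squalene synthase, differed by −1.10 ± 0.43, or −0.68 without 1 Day and 6 Day, and its second probe by −0.52.

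**Figure D3:**
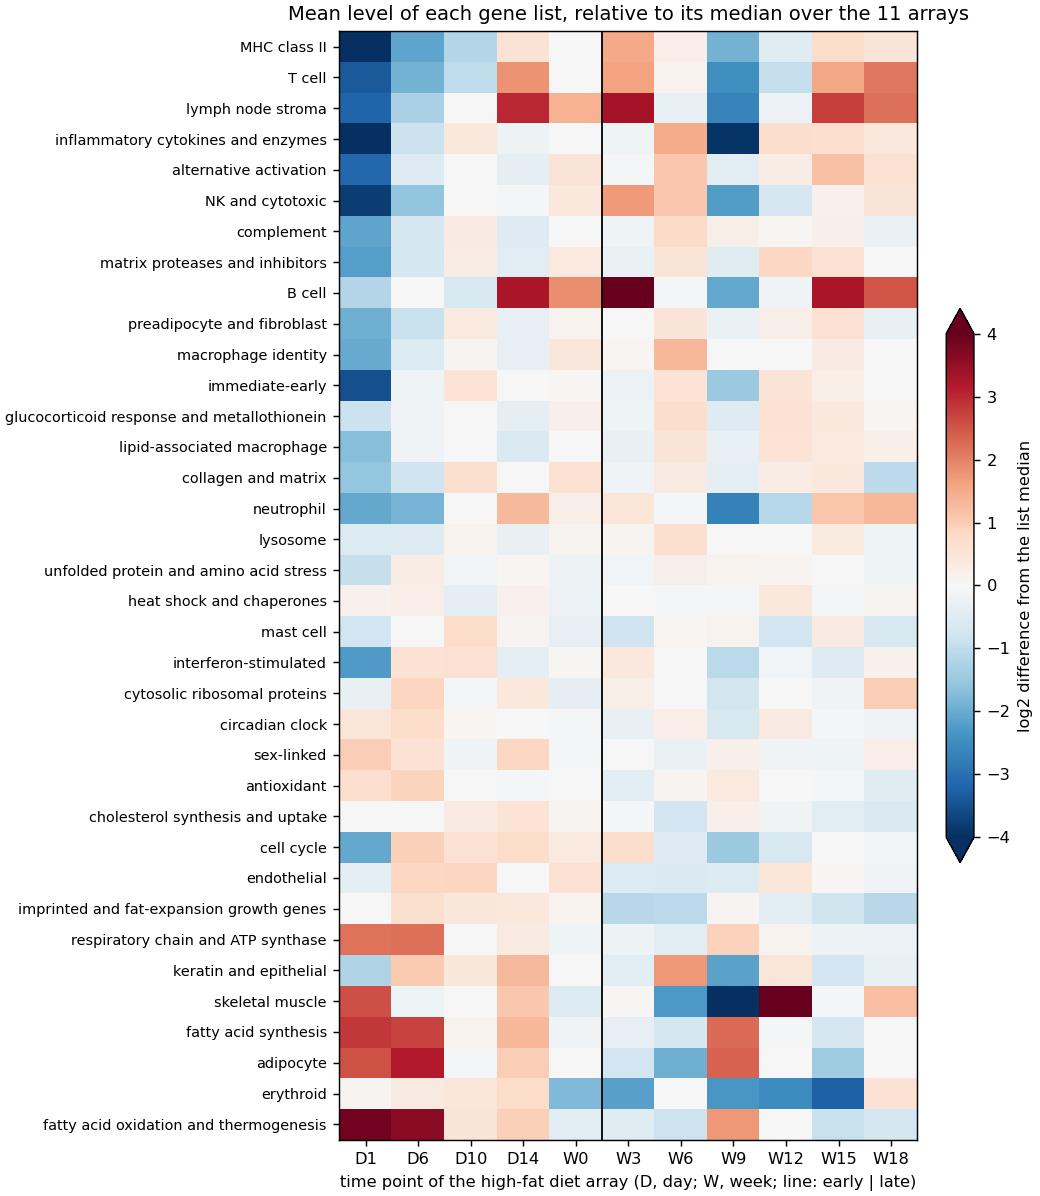
The heat map gives the mean log2 level of each of the 36 gene lists on the 11 HFC arrays, relative to the median of that list over the 11 arrays, in order of time, with a colour scale from −4 to 4. The adipocyte, thermogenic and respiratory lists are high at 1 Day, 6 Day and Week9, and the T cell list, at −4.30, −2.83 and −3.39 on these arrays, is low there before its median is taken off.

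The median of the endothelial list depended little on the arrays that stood apart. Of 12 genes, 11 had a negative difference, beside 67.4% of all probes, and 2 were lower at an unadjusted p, beside 12.5% of all probes, and 0 higher, with a median of −0.70 that was −0.67 without 1 Day and 6 Day, −0.84 with Week0 alone and −0.75 with normexp. The mean level was 2.53, 3.74, 3.78, 2.91 and 3.54 on the early arrays and 2.34 to 3.40 with a median of 2.58 on the late arrays, so the ranges overlapped. Cdh5, the cadherin of endothelial junctions, read 3.51 to 4.28 on the early arrays and 2.14 to 3.70 on the late arrays, a difference of −0.98 ± 0.32. Week12 was the only late array in the early range. Kdr, the receptor for vascular endothelial growth factor, differed by −1.15 ± 0.46.

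Stress, clock and growth lists were examined next. The glucocorticoid response and metallothionein list had 3 of 12 genes higher and 0 lower at an unadjusted p, with a median of 0.57 that was 0.15 without 1 Day and 6 Day. Fkbp5, a chaperone induced by glucocorticoids, differed by 1.16 ± 0.37, but its 2 other probes differed by 0.29 and 0.37. Tsc22d3, which encodes the glucocorticoid-induced leucine zipper, differed by 0.86 ± 0.34 and Errfi1, an inhibitor of the epidermal growth factor receptor, by 1.42 ± 0.63, or 0.46 without 1 Day and 6 Day and −0.20 with Week0 alone. The immediate-early list had 0 of 20 higher and 1 lower and a median of 0.60, which was −0.26 without 1 Day and 6 Day and −0.16 with Week0 alone. The mean level was −0.09 at 1 Day and 1.95 to 3.99 on the other arrays. The lower gene, Egr3, was well above background on 0 late arrays, and its difference of −1.43 became 0.61 with normexp. The circadian clock list had 1 of 17 lower and 0 higher, with a median of −0.24 that was 0.07 with normexp. The lower gene, Npas2, was also well above background on 0 late arrays and changed from −2.08 to 0.44 with normexp and −1.08 without 1 Day and 6 Day. The cell cycle list had 17 of 20 genes lower on the late arrays, 1 at an unadjusted p and 0 higher, with a median of −0.57, or −1.02 without 1 Day and 6 Day, −0.74 with Week0 alone and −0.35 without Week9. Its mean level was −2.71, 0.30, −0.10, 0.06 and −0.26 on the early arrays and −2.15 to 0.05 with a median of −0.97 on the late arrays. The 1 gene was Tyms, the thymidylate synthase, at −0.75 ± 0.30.

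The heat shock list (12 genes, median 0.12), the interferon-stimulated list (18 genes, median 0.02), the cytosolic ribosomal protein list (21 genes, median −0.07) and the list of unfolded protein and amino acid stress (16 genes, median 0.22) each had 0 genes at an unadjusted p in either direction. The interferon median was −0.34, the ribosomal median 0.022 and the unfolded protein median −0.012 without 1 Day and 6 Day. The heat shock and interferon medians were −0.03 and −0.15 with normexp, and the ribosomal median was 0.06 after quantile normalization. Lists of tissues beside the fat varied from array to array. Of 6 erythroid genes, 2 were lower and 0 higher, with a median of −1.63 that was 0.27 with normexp. The 2 genes, Epb42, a membrane protein of red cells, and the transcription factor Klf1, differed by −2.28 and −2.35, and by 0.57 and 0.35 with normexp. Epb42 was well above background on 3 early and 0 late arrays and Klf1 on 5 early and 3 late arrays, so these sizes are not exact, while the heme enzyme Alas2 differed by −1.59 ± 0.87. All 12 skeletal muscle genes had a negative difference with 0 at an unadjusted p, a median of −1.07 and a mean level from −5.18 at Week9 to 4.86 at Week12, and the median was 0.05 without Week9. The muscle gene Mylpf differed by −1.59 ± 1.24, or −0.87 without Week9. The keratin and epithelial list had 1 of 10 lower and 0 higher, with a median of −1.02 that was 0.60 with normexp and 0.86 among probes well above background on all arrays. Krt14, a keratin of the skin, was at 3.61 on the 6 Day array and at −5.56 to −1.69 on the other 10. Of 4 sex-linked genes tested, 0 were at an unadjusted p, with a median of −0.26, or 0.02 with normexp, and Xist, the fifth, was well above background on 0 of the 11 arrays.

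Of the 333 probes lower on the late arrays without overlap, 101 were well above background on all 11 arrays, and the median level of the 333 was −4.81. The genes named by rule from among them, beside H19, were dim. With Sycn, a protein of secretory granules, as the first of them, the levels were −2.87, −1.50, −3.53, −2.09 and −2.93 on the early arrays and −5.41 to −4.45 with a median of −4.95 on the late arrays. Acan, the cartilage proteoglycan aggrecan, read −3.41, −2.50, −2.86, −2.63 and −3.16 and then −5.48 to −4.36 with a median of −4.82. The groups were apart for both genes, with differences of −2.37 ± 0.37 and −1.96 ± 0.31 (both adjusted p 0.247), but with normexp the differences were −0.11 and −0.05. Adamts17, a secreted protease, was the least dim of the rest, read −2.67, −1.33, 0.07, −0.86 and −1.62 and then −4.98 to −2.92 with a median of −3.74, and differed by −2.57 ± 0.53, or −0.86 with normexp. The trypsin gene Try5 differed by −2.21, or −0.25 with normexp. Anln, which shapes the ring of dividing cells, Bdnf, a neurotrophin, Unc5c, a netrin receptor, Ifna1, an interferon, and Gap43, a protein of growing axons, had differences of −1.74, −1.76, −1.87, −2.32 and −2.12. With normexp these became 0.21, 0.03, 0.33, 0.25 and 0.12, so their direction depended on how the background was treated. All 9 passed without Week0. In all, 109 named genes were lower with no overlap and well above background on at least 50% of each group.

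Of the probes lower on the late arrays without overlap, 19 were well above background on no late array, and 0 probes were so in the other direction. For these only an approximate size is given: the early mean was set against the late mean with each late value raised to at least the lowest level well above background on its array. It is not a strict bound, since a probe that is not well above background can read above that level. Adamts20 read −5.24 at Week18, where that level was −6.83. By this measure Adamts20, a secreted protease, was 7.12-fold lower on the late arrays and Tfap2c, a transcription factor, 4.43-fold. Olfr608 and Olfr705, of the olfactory receptor family, were 3.73-fold and 3.67-fold lower, and Lrrc55, a membrane protein, 3.30-fold. These probes passed the filter through the early arrays alone, so no p-value is given. Tfap2c, Olfr705 and Lrrc55 were well above background on only 4 of the 5 early arrays. With normexp all 5 differences were positive, between 0.28 and 0.51.

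The LFC arrays give the same time points on the low-fat diet. Their arrays of days 1 to 14 were also scanned after every late LFC array, with Week0 scanned among the late ones. Time and scan order therefore cannot be told apart on LFC either, nor for a change that both diets share. Among the 5 early and 6 late LFC arrays, 2 stood apart: Week3 had 17.2% of its probes well above background and 14 Day had 9104 outlier spots. Of 29570 probes, 0 (0%) passed by limma, and 629 were higher (2.13%) and 172 lower (0.582%) at an unadjusted p. Without those arrays, 0 passed, with 714 higher and 917 lower. The difference between the diets in late minus early was tested on all 22 HFC and LFC arrays with the time point as a block: 0 of 32914 probes (0%) passed by limma, with 436 higher (1.32%) and 1180 lower (3.59%) at an unadjusted p. With normexp, 10103 probes passed, of which 9861 were higher, and the cause was not tested.

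For single genes the LFC differences are set beside those of HFC, with the value without Week3 and 14 Day after each. For the difference between diets, that value leaves out Week3 and 14 Day of both diets. H19 differed by −1.83 ± 1.25 on LFC, or −2.91 without those arrays, and the difference between diets was −2.74 ± 1.33 with an adjusted p of 0.779, or −1.44. Igh differed by 3.10 ± 0.74 on LFC and Jchain by 1.84 ± 1.19, the same direction as on HFC, with differences between diets of 1.21 ± 1.00 and 2.38 ± 1.58. Without those arrays, Igh differed by 2.76 on LFC and Jchain by 0.56. With Week3 and 14 Day of both diets left out, the differences between diets were 1.88 and 4.06. Inmt differed by 0.67 ± 1.51, or 0.82, and Pla1a by 0.14 ± 1.25, or 0.078. The early and late LFC medians were 0.31 and 3.29 for Inmt and 0.38 and 1.55 for Pla1a, with the lowest late LFC arrays at −5.13 and −5.23. Clec3b differed by −1.31 ± 1.02 on LFC, or −1.27, with LFC medians of 1.65 early and 0.67 late and a lowest late array at −4.05, and the difference between diets was 3.25 ± 1.00, or 3.19. For Try5 the difference between diets was −3.84 ± 1.04, or −3.36. On the scale used here, without normexp, the smallest adjusted p for the difference between diets was 0.779, or 0.489 without those time points, so no probe passed there. The adipocyte list had a median of −1.47 on LFC beside −1.55 on HFC and the imprinted list −1.12 beside −0.85, both below the LFC median of all probes, 0.17. Without Week3 and 14 Day these were −1.82 and −1.41, beside −0.064 for all probes. The endothelial list was at −1.63 on LFC beside −0.70 on HFC, and the cell cycle list at −0.83 beside −0.57. Without those arrays the 2 LFC medians were −1.79 and −1.64. The thermogenic list was at 0.05 on LFC beside −1.65, the respiratory list at 0.50 beside −0.92, the T cell list at −2.21 beside 1.56, the B cell list at −2.61 beside 0.73 and the lymph node list at −2.52 beside 1.45. Without Week3 and 14 Day the LFC medians of these lists were −0.31, 0.034, −3.10, −3.71 and −4.08. Single thermogenic genes were lower on late LFC arrays too. Ucp1 differed by −3.31 ± 1.88 on LFC and Cidea by −2.25 ± 1.82, or −4.51 and −2.87 without those arrays. Acaa2 differed by 0.06 and Hadha by −0.22, or −0.36 and −0.64. The Ucp1 difference between diets was −2.33 ± 1.76, or −1.34 without those time points.

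The late arrays of HFC with Kal-1, 16 in all, give further late levels on the high-fat diet, described here with no test. They pool 3 doses by their labels, 5 µg (6 arrays), 20 µg (5 arrays) and 75 µg (5 arrays). H19 was −6.36 to −1.67 there with a median of −4.05, all below the lowest early HFC array. Igh was 4.21 to 6.11 with a median of 5.19, all above the highest early HFC array. Jchain was 0.44 to 5.71 with a median of 3.08 and reached into the early range. Inmt had a median of 3.04 and a range of −0.17 to 5.39, and Clec3b a median of 2.02 and a range of −1.15 to 3.24, so both reached into the early range. Gpnmb was −3.27 to 0.58 with a median of −1.04.

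Several limits hold for all of the above. Precision is limited by the small number of arrays, 5 early and 6 late, each of another time point, and no array repeats a time on the diet except 14 Day and Week0. The scan order divides the arrays nearly as the time does. Dim probes depend on the background treatment, as the normexp values show. Lists are described by counts and medians and were not tested as sets. Levels of adipocyte, lymph node, muscle and red cell RNA differed between single arrays, and how far they carry the other differences was not tested.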

How the data were processed

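Cy3-labelled RNA was measured on Agilent 44K mouse arrays, 1 array per diet and time point. The deposited text files hold probe intensities, background-corrected by the authors' scanner software, Agilent Feature Extraction (10.5.1.1 per the file headers, 9.1 in the labels). The deposited series table holds fold changes from GeneSpring GX and was not used. Spots marked as outliers were dropped, duplicate spots were averaged, control probes were left out, and log2 intensities were shifted by each array's 75th percentile. A probe was tested if 50% or more of the early or of the late arrays had it well above background and each group had at least 3 values, or 1 where Week0 alone was the early group. The test was done with limma 3.58.1 in R 4.3.3 (lmFit, eBayes, Benjamini-Hochberg threshold 0.05), after the code was tested on simulated data. Since each array is another time point, these p-values treat time points as replicates. The test between diets had the time point as a block, since the labels pair the diets by time. Other tools were the R package data.table (1.17.8), Python 3.11.15, NumPy 2.4.6, pandas 2.3.3, SciPy 1.17.1 and matplotlib 3.10.9.

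Of 40628 probes, 28136 were named by accession, 4982 by symbol and 1406 by synonym from RefSeq genes of GRCm38.p6, used for names only, and 6104 kept the file's name. A gene was its probe with the highest mean level. Groups, tests, lists and most alternatives were fixed before the data were examined here. Earlier results of these data were known when the members and lists were chosen, so those choices are not independent of the data. Named genes had early and late values without overlap and were well above background on at least 50% of each group, the 15 largest differences past the threshold in each direction, or the 10 with the smallest p where fewer passed. To these came up to 5 approximate sizes per direction, for probes well above background on no array of a group, up to 4 members per list with the smallest p, and markers. Sult1e1, Egfr and Igkv3-12 were chosen after their values were seen. Alternatives changed the scaling, background correction (normexp, offset 50), filter, arrays, test and grouping of time.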

Additional observations from a re-analysis of the deposited data

Results flagged for a closer look

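In groups of 5 or 6 arrays, 11 of 122 groups held an array far from the rest of its group, and chance gives about 1 in 20. On the 1 Day array the mean level was −4.46 for the inflammatory list, −1.81 for alternative activation, −2.71 for the cell cycle and −0.090 for the immediate-early list, each below the other early arrays. On Week9 it was −3.24 for the inflammatory list, below the other late arrays, and 2.49 for fatty acid synthesis and 2.16 for fatty acid oxidation and thermogenesis, above them. The macrophage identity list was at 2.15 on Week6, where the other late arrays lay between 0.80 and 1.16. The heat shock list was at 4.75 on Week12, the erythroid list at −3.00 on Week0 and Ifna1 at −4.91 on Week12. What set these arrays apart was not tested.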

How the results depend on the processing

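For HFC late minus early, 1 probe passed when only probes well above background on all arrays were tested, 3 passed without Week0 and Week3, and 1281 passed without Week0. Leaving out each array in turn gave 0 to 1281 calls, with 0 in 10 of 11 cases. The other alternatives with at least 3 early arrays gave 0 by limma or the methods' t-test. For the difference between diets, 10103 probes passed with normexp. In that test the time point is a block that pairs the diets, and without the block 0 passed by limma, with 1001 at an unadjusted p beside 1616. The cause was not tested.

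With normexp, the differences of these genes changed sign: Anln 0.21, Bdnf 0.028, Unc5c 0.33, Ifna1 0.25, Gap43 0.12, Egr3 0.61, Npas2 0.44, Madcam1 0.24, Epb42 0.57 and Klf1 0.35. With Week0 alone as the early group, a setting chosen after seeing the data, these did: Cd68 −0.051, Adgre1 −0.83, Ctsk −0.094, Ucp1 0.073, Cidea 0.23, Atp5a1 0.11, Mmp2 −0.087, Errfi1 −0.20, Cd79b −0.67, Alas2 0.73 and Krt14 0.094. Adgre1 was also −0.59 without 1 Day and 6 Day, −0.029 without Week9 and −0.00033 per day as a linear trend, and leaving out each array in turn gave −0.43 to 0.39. The cause was not tested. Without Week0, 24 named genes passed that had not passed before.

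Of 36 list medians, 13 moved by at least 1 SD with Week0 alone, 2 with normexp, 2 without 1 Day and 6 Day, 1 among probes well above background on all arrays, and 0 in the other settings. A block for the scan day was not run, since no scan day held more than 1 HFC array. The median signal over background was 2.09 to 7.79 on the early and 4.03 to 7.23 on the late HFC arrays, which limits what dim probes show.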
